A study of Mus musculus with 4 samples.

Results

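Aminoacyl-tRNA synthetases and enzymes that make amino acids were measured in Reg4+ deep crypt secretory (DCS) cells and in Lgr5+ cells of mouse colon. Taken by symbol from the authors' table, they comprised 20 cytosolic synthetases, 16 mitochondrial synthetases and 9 enzymes of serine, folate, asparagine and proline synthesis. These were 45 of the 14519 genes in the table, and all 45 were present. DCS cells are secretory cells at the base of the colonic crypt, beside the stem cells that the Lgr5 reporter marks. Cells positive for a Reg4-dsRed reporter and cells positive for an Lgr5-GFP reporter were sorted from colonic epithelium, and each population gave 2 libraries. Libraries were made by CEL-seq, which counts the 3′ ends of transcripts, and values are in RPM, the reads of a gene per 1000000 reads. The sources used here do not give strain, age, sex, the number of animals per sort or any treatment. Fold changes compare Reg4+ DCS with Lgr5+ cells, since neither sorted population is an untreated control of the other.

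Each aminoacyl-tRNA synthetase joins 1 amino acid to its tRNAs, and separate nuclear genes mostly encode the enzymes of the cytosol and those imported into mitochondria, whose symbols end in 2. Serine is made from a glycolytic intermediate by Phgdh, Psat1 and Psph, and the serine hydroxymethyltransferases Shmt1 (cytosol) and Shmt2 (mitochondria) convert it to glycine and load a carbon unit on folate. In many cell types the transcription factor Atf4 induces cytosolic synthetases together with Asns, Phgdh, Psat1, Shmt2, Mthfd2 and Aldh18a1 when charged tRNA or endoplasmic reticulum folding capacity is short. The mucins that goblet-type cells secrete are rich in threonine, serine and proline.

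Each Reg4+ DCS library was recovered as 2 separately scaled parts, of 5523304 and 1890960 reads in replicate 1 and 3004289 and 2443971 reads in replicate 2, and the Lgr5+ libraries held 5205723 and 7955340 reads. Of 9 markers of DCS and goblet cells 9 were higher in Reg4+ DCS cells, and 8 of 9 stem cell markers were lower. These lists include Reg4 and Lgr5, whose reporters were used for the sort, so these 2 genes are no separate check of it. Of 8 epithelial identity genes 1 was called, as lower. The 10 cycling cell markers summed to 493 and 527 RPM in Reg4+ DCS and to 1796 and 1838 RPM in Lgr5+ libraries, and 8 of them were called lower. The 6 tuft cell markers summed to 2.30 and 1.98 RPM in Reg4+ DCS and to 849 and 254 RPM in Lgr5+ libraries, with Alox5ap, Gfi1b and Pou2f3 at 0 in both Reg4+ DCS libraries. The 6 measured of 12 leukocyte markers summed to 3.22 and 4.04 RPM in Reg4+ DCS and to 61.5 and 54.9 RPM in Lgr5+ libraries, with Cd3e, Cd79a and Ptprc at 0 in both Reg4+ DCS libraries. The 6 measured of 7 enteroendocrine markers summed to 17.8 and 25.9 RPM in Reg4+ DCS and to 71.5 and 35.1 RPM in Lgr5+ libraries, with Neurod1 at 0 in both Reg4+ DCS libraries. The 7 absorptive colonocyte markers summed to 425 and 542 RPM in Reg4+ DCS and to 952 and 198 RPM in Lgr5+ libraries, and there the populations overlapped. The part of these cell types in the results was not tested, and in such bulk libraries fewer cells of a type and less RNA per cell cannot be told apart. The 5 most abundant genes took 22.0% and 14.5% of all RPM in Reg4+ DCS and 11.5% and 11.9% in Lgr5+ libraries. The median log2 fold change over the 10183 genes tested was -0.47 on the RPM scale, 0.02 after scaling by median-of-ratios size factors and -0.03 in edgeR on recovered reads, so a gene at the median of all genes had a negative RPM fold change.

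The C/EBP-ATF response element, through which Atf4 acts, was searched for in promoter windows of RefSeq (GRCm38.p6) that span 250 bases before to 50 after the annotated start. Its core was spelled TGATGNAA, or TTNCATCA on the opposite strand. Windows were matched for 35 of the 45 genes, and 7 of these 35 (20%) held the core, against 4.51% of 27025 genes with a window. They belonged to Aars, Asns, Gars, Iars, Pycr1, Tars and Yars. The windows of the 4 with the highest fold changes among the tested genes are shown because Tars, Aars and Yars come next after Wars in fold change among the cytosolic synthetases below, and Asns heads the synthesis enzymes. They lie at chr15:11399609-11399908 (minus strand) for Tars, chr6:7693160-7693459 (minus strand) for Asns, chr8:111033592-111033891 (plus strand) for Aars and chr4:129189653-129189952 (plus strand) for Yars. Each is written 5′ to 3′ along the gene's strand, with matches to the core in capitals.
Tars: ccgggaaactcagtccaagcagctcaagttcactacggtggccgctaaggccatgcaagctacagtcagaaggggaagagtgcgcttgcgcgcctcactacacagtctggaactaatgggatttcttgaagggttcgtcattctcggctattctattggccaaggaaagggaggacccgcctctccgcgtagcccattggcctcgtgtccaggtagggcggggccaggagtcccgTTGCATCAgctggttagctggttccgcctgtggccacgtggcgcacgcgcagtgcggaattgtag
Asns: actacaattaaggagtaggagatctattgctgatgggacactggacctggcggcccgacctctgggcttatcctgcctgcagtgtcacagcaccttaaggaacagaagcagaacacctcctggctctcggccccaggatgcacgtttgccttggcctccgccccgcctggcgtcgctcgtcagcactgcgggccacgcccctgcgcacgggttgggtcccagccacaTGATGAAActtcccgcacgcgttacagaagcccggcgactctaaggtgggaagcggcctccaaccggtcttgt
Aars: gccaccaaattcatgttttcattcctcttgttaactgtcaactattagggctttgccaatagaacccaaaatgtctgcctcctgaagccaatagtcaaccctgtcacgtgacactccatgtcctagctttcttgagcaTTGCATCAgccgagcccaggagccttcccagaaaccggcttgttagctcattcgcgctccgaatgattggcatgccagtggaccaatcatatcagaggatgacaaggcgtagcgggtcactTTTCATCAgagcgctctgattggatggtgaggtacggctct
Yars: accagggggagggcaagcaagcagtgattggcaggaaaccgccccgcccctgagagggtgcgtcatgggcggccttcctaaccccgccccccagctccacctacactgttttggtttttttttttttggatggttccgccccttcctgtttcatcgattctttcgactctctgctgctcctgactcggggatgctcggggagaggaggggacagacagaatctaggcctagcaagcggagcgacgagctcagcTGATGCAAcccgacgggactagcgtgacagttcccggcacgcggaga
The match began 15 bases before the annotated start in Tars and 23 before it in Asns, and in Yars it began at base 4 after the start. Aars held 2 matches, which began 112 bases before and 10 bases after the start. A match describes letters in a window and does not show that a factor binds there.

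In the comparison of Reg4+ DCS with Lgr5+ cells, the synthetases and the synthesis enzymes did not move as 1 group. Of the 43 genes that passed the filter on low values, 2 were higher in Reg4+ DCS (Wars and Tars), 15 were lower and 26 did not pass the test (limma, Benjamini-Hochberg adjusted p under 0.05 over all genes tested). Across all genes tested 34.1% were called, 7.18% as higher and 26.9% as lower, so the share of lower calls among these genes was near the background. Both Reg4+ DCS libraries lay below both Lgr5+ libraries for 33 of the 43 genes and above them for 6, against 56.2% and 16.1% of all genes tested. The median log2 fold change of the 43 was -0.59. After median-of-ratios scaling 6 were higher and 7 lower, against 15.6% and 12.7% of all genes. In edgeR on recovered reads 4 were higher and 6 lower, against 13.4% each way. Of the 17 called genes, Wars, Tars2, Shmt1, Shmt2, Phgdh and Psat1 were called in each of the 11 alternatives run. Without Reg4+ DCS replicate 1 only 7 genes were called, without Reg4+ DCS replicate 2 there were 11, and without Lgr5+ replicate 2 there were 10.

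**Figure D1:**
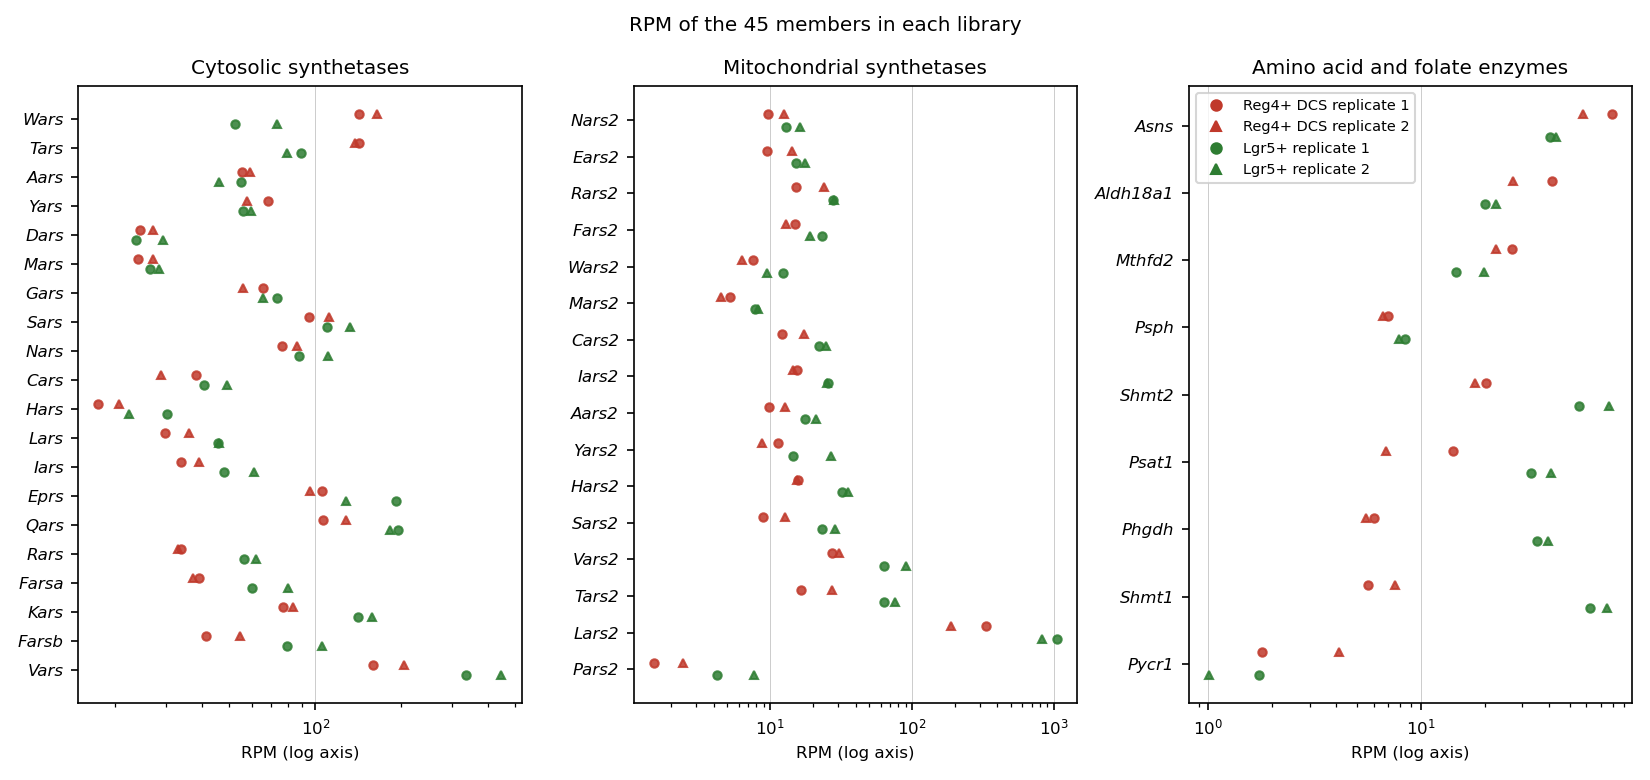
RPM in each library (log axis, 1 point per library) of the 20 cytosolic synthetases, 16 mitochondrial synthetases and 9 amino acid and folate enzymes, ordered by fold change within each panel, with genes below the filter last. Reg4+ DCS points lie right of the Lgr5+ points for Wars and Tars, and left of them for all 16 mitochondrial synthetases on this scale, although the fold changes of Ears2 and Nars2 turn positive after median-of-ratios scaling.

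**Figure D2:**
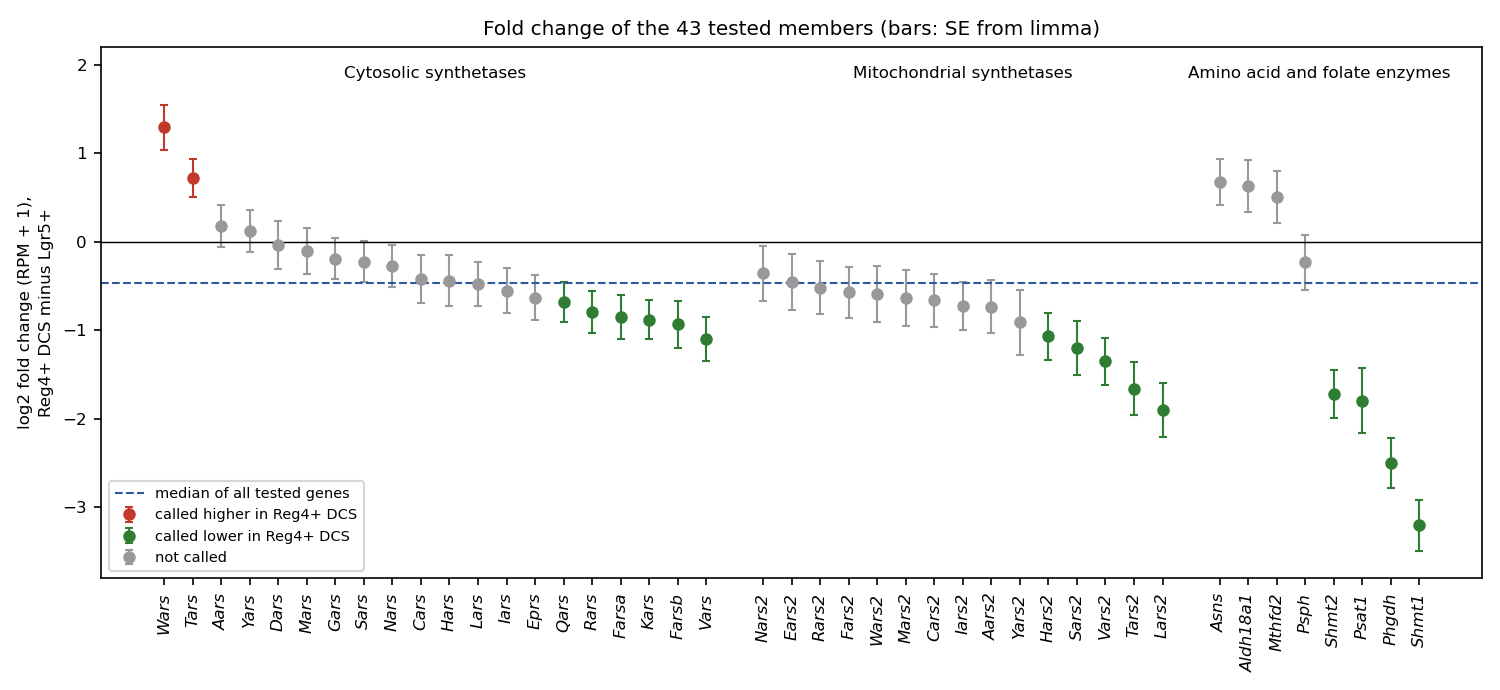
Log2 fold change of each tested gene (Reg4+ DCS minus Lgr5+, on log2(RPM + 1)) with its standard error from limma, n = 2 libraries per population. Red points were called higher, green points lower and grey points were not called, and the dashed line marks the median of all genes tested, -0.47. Wars at 1.29 is the highest and Shmt1 at -3.20 the lowest.

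Among the 20 cytosolic synthetases, those for tryptophan and threonine rose in Reg4+ DCS cells, 6 fell and 12 did not pass the test. Their shares of 10% higher and 30% lower were near those of all genes tested, 7.18% and 26.9%. The summed level of the 20 was 1375 and 1490 RPM in Reg4+ DCS and 1796 and 1967 RPM in Lgr5+ libraries, a ratio of 0.761, or 1.08 after median-of-ratios scaling. The direction of the sum thus turned with the scaling.

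Wars, the tryptophanyl-tRNA synthetase, which interferon-gamma is known to induce (chr12:108860030-108894174, minus strand, GRCm38), had 142 and 165 RPM in Reg4+ DCS and 52.3 and 73.4 RPM in Lgr5+ libraries. Both Reg4+ DCS values lay above both Lgr5+ values, and the ratio of means was 2.44, or 2.09 to 2.94 without 1 library. Its log2 fold change was 1.29 ± 0.25 (SE; limma adjusted p = 0.00711). These values rest on 1006 and 903 reads in the Reg4+ DCS and 272 and 584 reads in the Lgr5+ libraries.

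Tars, which charges threonine tRNA (chr15:11382301-11399665, minus strand), had 142 and 137 RPM in Reg4+ DCS and 89.1 and 79.7 RPM in Lgr5+ libraries. The groups did not overlap, and the log2 fold change was 0.72 ± 0.22 (limma adjusted p = 0.0362). The call was lost without any 1 of the 4 libraries (limma adjusted p of 0.0746 to 0.157), and it held after median-of-ratios scaling (limma adjusted p = 0.00422) and in edgeR (adjusted p = 0.00652).

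The 6 cytosolic synthetases called lower charge valine, lysine, phenylalanine, arginine and glutamine tRNAs. Vars (valine) had 159 and 205 RPM in Reg4+ DCS and 337 and 448 RPM in Lgr5+ libraries, with a log2 fold change of -1.10 ± 0.25 (limma adjusted p = 0.0128). Farsb, the beta subunit of the phenylalanine enzyme, had 41.5 and 54.7 RPM in Reg4+ DCS and 79.9 and 106 RPM in Lgr5+ libraries (log2 fold change -0.93). Farsa, its alpha subunit, had 39.1 and 37.2 RPM in Reg4+ DCS and 60.1 and 80.3 RPM in Lgr5+ libraries (-0.85). Both subunits of this enzyme were thus called lower, and 250 of the last 500 bases of Farsb overlap Sgpp2 on the opposite strand. Kars, which charges lysine tRNA in both compartments, had 77.1 and 83.9 RPM in Reg4+ DCS and 141 and 158 RPM in Lgr5+ libraries (log2 fold change -0.88). Rars (arginine) had 33.8 and 33.2 RPM in Reg4+ DCS and 56.1 and 61.8 RPM in Lgr5+ libraries (-0.80). Qars (glutamine) had 106 and 128 RPM in Reg4+ DCS and 194 and 182 RPM in Lgr5+ libraries (-0.68). In each of the 6 both Reg4+ DCS libraries lay below both Lgr5+ libraries, and limma's adjusted p was 0.0184 for Kars, 0.0281 for Farsb, 0.0338 for Farsa, 0.0343 for Rars and 0.0462 for Qars. None of the 6 was called after median-of-ratios scaling or in edgeR, where the cytosolic enzymes gave 3 higher and 0 lower, and 2 higher and 0 lower. Over all genes the shares were 15.6% higher and 12.7% lower after that scaling, and 13.4% each way in edgeR. Without Reg4+ DCS replicate 1 the count of 8 called cytosolic synthetases was 1, without Reg4+ DCS replicate 2 or Lgr5+ replicate 2 it was 3, and without Lgr5+ replicate 1 it was 5.

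Of the 12 that did not pass the test, Eprs, which charges both glutamate and proline tRNAs, had 106 and 95.7 RPM in Reg4+ DCS and 191 and 128 RPM in Lgr5+ libraries. Its log2 fold change of -0.63 missed the threshold (limma adjusted p = 0.0896) and passed it without Lgr5+ replicate 2 (limma adjusted p = 0.0402). Sars (serine) had 94.9 and 111 RPM in Reg4+ DCS and 109 and 132 RPM in Lgr5+ libraries, and these groups overlapped (log2 fold change -0.23). Nars (asparagine) had 76.2 and 86.6 RPM in Reg4+ DCS and 87.6 and 110 RPM in Lgr5+ libraries (log2 fold change -0.27). The other 9 had log2 fold changes between -0.55 (Iars, isoleucine) and 0.18 (Aars, alanine). Aars and Yars (tyrosine), whose promoter windows are shown above and which were singled out after their values were seen, had log2 fold changes of 0.18 and 0.12. Aars had 55.5 and 58.9 RPM in Reg4+ DCS and 55.1 and 46.1 RPM in Lgr5+ libraries, and after median-of-ratios scaling it was the third gene called higher (limma adjusted p = 0.0485). The last 500 bases of Aars also lie within a transcript of Exosc6 on the same strand, so reads of these 2 genes could be exchanged. The 6 tested genes with the Atf4 element core in their window had log2 fold changes from -0.55 to 0.72 and a median of 0.15, with 1 higher and 0 lower. The 28 tested genes whose window lacked it had a median of -0.70, with 0 higher and 12 lower. No holder of the core is a mitochondrial synthetase, and the whole mitochondrial class had a median of -0.73 against -0.43 for the cytosolic one. The groups with and without the core thus differ in class too, and the part of class was not tested. Over all tested genes with a window, the 192 that held the core had a median of -0.33 and the 7493 that lacked it one of -0.47. Wars, the other gene called higher, had no matched window and is in neither group. The E-box CACGTG, a motif that reads the same on both strands, is held by 8.09% of all genes with a window. It was found in 6 of the 35 genes (Aars, Aldh18a1, Ears2, Farsb, Iars and Tars), of which Aars, Iars and Tars also held the core. The 6 with an E-box had a median of -0.14, with 1 higher and 1 lower. The 28 tested genes without it had a median of -0.67, with 0 higher and 11 lower. Medians over all tested genes with a window were -0.43 for the 955 with an E-box and -0.47 for the 6730 without it. These medians are a description of windows, and no test was made of them.

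All 16 mitochondrial synthetases had a lower mean RPM in Reg4+ DCS cells, although most single differences did not pass the test and those of Ears2 and Nars2 turned after median-of-ratios scaling. Of the 15 tested, 5 fell, 10 did not pass and none rose, and both Reg4+ DCS libraries lay below both Lgr5+ libraries in all 15. Among all genes tested 26.9% were called lower and 56.2% lay below without overlap, so the share of lower calls was near the background. Their median log2 fold change was -0.73. Summed, the 16 reached 510 and 403 RPM in Reg4+ DCS and 1411 and 1259 RPM in Lgr5+ libraries, a ratio of 0.342. After median-of-ratios scaling the ratio was 0.495, with 3 lower and 0 higher against 12.7% lower among all genes. In edgeR 2 were lower and 0 higher, against 13.4% each way. There were 2 calls without Reg4+ DCS replicate 1, and 3 without Lgr5+ replicate 2.

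Lars2, which charges mitochondrial leucine tRNA (chr9:123366927-123462666, plus strand), made up most of that sum in all libraries except Reg4+ DCS replicate 2. It had 329 and 187 RPM in Reg4+ DCS and 1045 and 825 RPM in Lgr5+ libraries, with no overlap, and its log2 fold change was -1.90 ± 0.31 (limma adjusted p = 0.00320). The call was lost in edgeR (adjusted p = 0.0974). In Reg4+ DCS replicate 1 its 2 recovered parts stood at 529 and 130 RPM, and in replicate 2 at 207 and 167 RPM, all below both Lgr5+ libraries. Without Lars2 the sum of the other 15 was 181 and 216 RPM in Reg4+ DCS and 365 and 434 RPM in Lgr5+ libraries, a ratio of 0.497.

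Tars2, the mitochondrial threonine enzyme, moved opposite to its cytosolic partner. It had 16.6 and 27.2 RPM in Reg4+ DCS and 63.8 and 75.3 RPM in Lgr5+ libraries, and its log2 fold change was -1.66 ± 0.30 (limma adjusted p = 0.00500). Vars2 (valine) had 27.4 and 30.8 RPM in Reg4+ DCS and 63.4 and 90.0 RPM in Lgr5+ libraries (log2 fold change -1.35, limma adjusted p = 0.00746). Both were well separated between the populations. Sars2 (serine) had 8.88 and 12.7 RPM in Reg4+ DCS and 23.2 and 28.5 RPM in Lgr5+ libraries (log2 fold change -1.20, limma adjusted p = 0.0203). Hars2 (histidine) had 15.6 and 15.4 RPM in Reg4+ DCS and 31.9 and 35.4 RPM in Lgr5+ libraries (log2 fold change -1.07, limma adjusted p = 0.0176). The groups did not overlap in either, but neither call held after median-of-ratios scaling (limma adjusted p of 0.0798 for Sars2 and 0.119 for Hars2) or in edgeR (adjusted p of 0.0863 and 0.0818). Without Reg4+ DCS replicate 1 the calls of Vars2, Sars2 and Hars2 were lost (limma adjusted p of 0.0532, 0.102 and 0.0662), without Lgr5+ replicate 2 those of Sars2 and Hars2 (0.0828 and 0.0733), and without Reg4+ DCS replicate 2 that of Hars2 (0.0507).

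Of the mitochondrial enzymes that did not pass, Rars2 (arginine) had 15.3 and 24.1 RPM in Reg4+ DCS and 27.7 and 28.2 RPM in Lgr5+ libraries. Iars2 (isoleucine) had 15.4 and 14.5 RPM in Reg4+ DCS and 25.5 and 25.3 RPM in Lgr5+ libraries. Cars2 (cysteine) had 12.1 and 17.2 RPM in Reg4+ DCS and 22.1 and 24.9 RPM in Lgr5+ libraries. Their log2 fold changes were -0.52, -0.73 and -0.66, and the 10 ran from -0.91 (Yars2) to -0.36 (Nars2). The ends of Iars2 and Cars2 overlap Rab3gap2 (500 bases) and Naxd (220 bases) on the opposite strand. Of these 10, Yars2 passed without Lgr5+ replicate 1. Pars2 (proline) was below the filter, with 1.51 and 2.43 RPM in Reg4+ DCS and 4.23 and 7.67 RPM in Lgr5+ libraries.

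The ratio of a cytosolic synthetase to its mitochondrial partner does not change when all values of a column are multiplied by 1 factor, although it does depend on how the 2 parts of a Reg4+ DCS column were averaged. It was formed for the 13 amino acids whose cytosolic and mitochondrial symbols differ only by the final 2. The enzymes for phenylalanine, glutamate and proline were not paired. Of these, Farsa and Farsb had log2 fold changes of -0.85 and -0.93 against -0.57 for Fars2. Eprs had -0.63 against -0.45 for Ears2. In 10 of the 13 pairs both Reg4+ DCS ratios lay above both Lgr5+ ratios, in none below, and the pairs for cysteine, isoleucine and arginine overlapped. The mitochondrial partner was itself lower without overlap in every pair, so this count is not separate from that result. No share over other gene pairs was computed. Nars over Nars2 was barely apart, at 7.89 and 6.86 in Reg4+ DCS and 6.81 and 6.81 in Lgr5+ libraries. Tars over Tars2 was 8.55 and 5.05 in Reg4+ DCS and 1.40 and 1.06 in Lgr5+ libraries. For Wars over Wars2 it was 18.9 and 26.1 in Reg4+ DCS and 4.25 and 7.68 in Lgr5+ libraries, with Wars2 itself at 7.51 and 6.31 RPM in Reg4+ DCS and 12.3 and 9.55 RPM in Lgr5+ libraries. By the ratio of their means, threonine and tryptophan gave the widest gaps of the 13. Sars over Sars2 was 10.7 and 8.77 in Reg4+ DCS and 4.71 and 4.64 in Lgr5+ libraries, although Sars did not pass the test on its own. Taken in each of the 4 recovered parts of the Reg4+ DCS columns, a comparison chosen after seeing the data, the ratio lay above both Lgr5+ ratios in all 4 parts for 7 of the 13 pairs (alanine, methionine, serine, threonine, valine, tryptophan and tyrosine). For the histidine, leucine and asparagine pairs, and for the overlapping cysteine pair, it did so in 3 of the 4 parts. Lars over Lars2 was 0.0486 and 0.261 in the parts of Reg4+ DCS replicate 1 and 0.166 and 0.228 in those of replicate 2, against 0.0437 and 0.0559 in the Lgr5+ libraries. With the reads of both parts added, 10 pairs again lay above. With 2 libraries against 2, the smallest p that an exact permutation test can give is 0.333, so the ratios are a description.

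**Figure D3:**
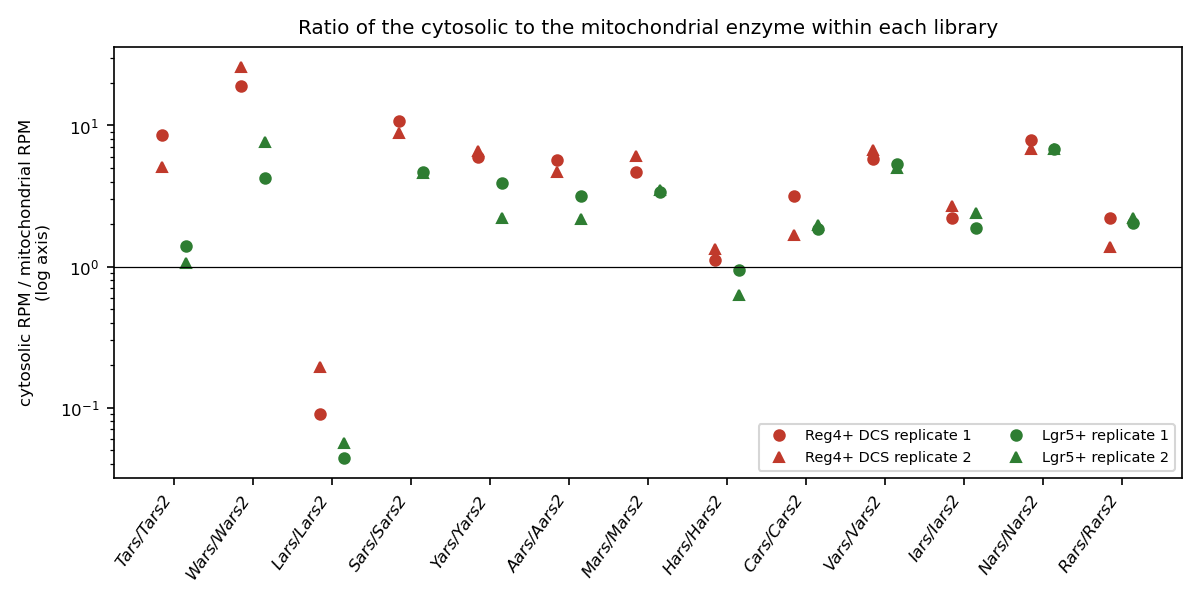
Ratio of cytosolic to mitochondrial RPM for the same amino acid in each library (log axis), for 13 pairs. Reg4+ DCS points stand above the Lgr5+ points in 10 pairs, most widely for threonine (8.55 and 5.05 against 1.40 and 1.06), and overlap them in 3.

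The 9 enzymes of amino acid and folate metabolism did not move together. Shmt1, Phgdh, Psat1 and Shmt2, of serine and folate metabolism, had 4 of the 5 lowest fold changes among the 43 tested genes, while Asns (asparagine), Aldh18a1 (proline) and Mthfd2 (folate) had positive ones that did not pass the test on the RPM scale. Of the 8 tested, 4 fell, 4 did not pass and none rose on the RPM scale. Among all genes tested 26.9% were called lower and 7.18% higher. After median-of-ratios scaling 3 were higher and 4 lower, against 15.6% and 12.7% of all genes. In edgeR 2 were higher and 4 lower, against 13.4% each way.

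Shmt1, the cytosolic serine hydroxymethyltransferase (chr11:60788104-60811718, minus strand), had 5.64 and 7.53 RPM in Reg4+ DCS and 62.2 and 75.2 RPM in Lgr5+ libraries. It was 10.4-fold lower in Reg4+ DCS cells, or 9.12- to 12.2-fold without 1 library, with a log2 fold change of -3.20 ± 0.29 (limma adjusted p = 0.000280). The end of its transcript overlaps that of Smcr8 on the opposite strand over 184 bases, and the sources used here do not say whether the counting used strand.

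Phgdh, which takes the first step of serine synthesis (chr3:98313170-98339990, minus strand), had 6.03 and 5.49 RPM in Reg4+ DCS and 35.2 and 39.5 RPM in Lgr5+ libraries. It was 6.48-fold lower, with no overlap and a log2 fold change of -2.50 ± 0.28 (limma adjusted p = 0.000747). The end of its transcript is shared with 11 processed pseudogenes at up to 99.2% identity, so some reads could belong to these. Psat1, the second enzyme (chr19:15904678-15947337, minus strand), had 14.2 and 6.82 RPM in Reg4+ DCS and 33.0 and 40.9 RPM in Lgr5+ libraries, with a log2 fold change of -1.79 ± 0.37 (limma adjusted p = 0.00831). It was 3.52-fold lower by the ratio of means, 5.42-fold lower without Reg4+ DCS replicate 1 and 2.61-fold lower without Reg4+ DCS replicate 2. Psph, the last enzyme, had 6.99 and 6.63 RPM in Reg4+ DCS and 8.45 and 7.92 RPM in Lgr5+ libraries. Its log2 fold change of -0.23 did not pass the test and was positive, 0.22, after median-of-ratios scaling. Shmt2, the mitochondrial serine hydroxymethyltransferase (chr10:127517123-127522444, minus strand), had 20.2 and 18.0 RPM in Reg4+ DCS and 55.3 and 76.4 RPM in Lgr5+ libraries. The log2 fold change was -1.72 ± 0.27 (limma adjusted p = 0.00290).

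Asns, the asparagine synthetase (chr6:7675169-7693254, minus strand), had 79.0 and 57.6 RPM in Reg4+ DCS and 40.5 and 43.2 RPM in Lgr5+ libraries. The groups did not overlap, but its log2 fold change of 0.68 ± 0.26 did not pass the test on the RPM scale (limma adjusted p = 0.0722). It passed after median-of-ratios scaling (limma adjusted p = 0.0149) and in edgeR (adjusted p = 0.0185). Aldh18a1, which makes the proline precursor from glutamate, had 41.2 and 27.1 RPM in Reg4+ DCS and 20.0 and 22.6 RPM in Lgr5+ libraries. Its log2 fold change was 0.63 ± 0.30 (limma adjusted p = 0.130), and it too passed after median-of-ratios scaling (limma adjusted p = 0.0313) and in edgeR (adjusted p = 0.0329). Mthfd2, a mitochondrial folate enzyme downstream of Shmt2, had 26.8 and 22.4 RPM in Reg4+ DCS and 14.6 and 19.9 RPM in Lgr5+ libraries. Its log2 fold change of 0.50 passed only after median-of-ratios scaling (limma adjusted p = 0.0388). Pycr1, which completes proline synthesis, was below the filter, at 1.78 and 4.12 RPM in Reg4+ DCS and 1.73 and 1.01 RPM in Lgr5+ libraries.

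Enzymes that are known as Atf4 targets thus had fold changes of both signs. Within libraries, and for pairs chosen after their values were seen, Asns over Phgdh was 13.1 and 10.5 in Reg4+ DCS and 1.15 and 1.10 in Lgr5+ libraries. Mthfd2 over Shmt2, both mitochondrial, was 1.33 and 1.25 in Reg4+ DCS and 0.264 and 0.260 in Lgr5+ libraries. Shmt2 over Shmt1 was 3.59 and 2.39 in Reg4+ DCS and 0.889 and 1.02 in Lgr5+ libraries. None of these ratios overlapped between the populations.

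Around these genes, 116 measured genes of related pathways were read in the same way, of which 92 passed the filter, with 11 higher and 27 lower. After median-of-ratios scaling 19 were higher and 13 lower, and in edgeR, which covered 89 of the 92, 15 and 14. Atf4 and Nupr1 had no edgeR value, since their recovered reads were ambiguous. Among all genes tested 7.18% were higher and 26.9% lower, or 15.6% and 12.7% after median-of-ratios scaling. These shares are the background for each list below. Atf4 and its stress response held 6 higher and 2 lower of 19 tested, with a median log2 fold change of 0.15, against -0.47 for all genes. Median-of-ratios scaling gave 9 higher and 1 lower. Atf4 itself had 1976 and 2406 RPM in Reg4+ DCS and 1129 and 1045 RPM in Lgr5+ libraries, with a log2 fold change of 1.00 ± 0.25 (limma adjusted p = 0.0181). That call was lost without Reg4+ DCS replicate 1 (limma adjusted p = 0.0851) or replicate 2 (0.118). Ddit3 (CHOP), a transcription factor of the same response, had 194 and 240 RPM in Reg4+ DCS and 58.4 and 53.7 RPM in Lgr5+ libraries (log2 fold change 1.93, limma adjusted p = 0.000888). Its 3′ end overlaps that of Mars on the opposite strand over 68 bases. The stress protein Nupr1 (log2 fold change 3.60) and the alanine transaminase Gpt2 (2.61) were also higher, and the secreted factor Gdf15 was lower (-2.80). The calls of Ddit3, Nupr1 and Gdf15 held without any 1 library. Gpt2 fell below the filter without either Reg4+ DCS library, so its call could be checked only without each Lgr5+ library, where it held. Atf5 had 15.9 and 26.2 RPM in Reg4+ DCS and 20.0 and 27.9 RPM in Lgr5+ libraries, with overlap. Trib3 had 2.84 and 2.06 RPM in Reg4+ DCS and 2.11 and 1.51 RPM in Lgr5+ libraries, and Chac1 had 9.42 and 1.11 RPM in Reg4+ DCS and 1.34 and 0.754 RPM in Lgr5+ libraries. Both of these Atf4 targets were below the filter. 

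Other genes of serine, glycine and one-carbon metabolism held 7 lower and 0 higher of 17 tested, with a median of -0.70, against 26.9% lower among all genes. After median-of-ratios scaling 5 were lower and 0 higher, with a median of -0.22. Mthfd1, the cytosolic folate enzyme, had 8.07 and 13.4 RPM in Reg4+ DCS and 56.3 and 50.4 RPM in Lgr5+ libraries (log2 fold change -2.25, limma adjusted p = 0.00164). Sdsl (-1.66), Gart (-1.51), which makes purines, and Tyms (-1.34), which makes thymidylate and is also on the list of cycling markers, were lower too. The call of Tyms was lost without Reg4+ DCS replicate 1 (limma adjusted p = 0.0578). Mthfd2 over Mthfd1 was 3.33 and 1.67 in Reg4+ DCS and 0.259 and 0.394 in Lgr5+ libraries. The cycling marker sum given above fell alongside these genes, and its part was not tested.

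Partners of the synthetases and other tRNA charging genes held 7 lower and 0 higher of 16 tested, with a median of -0.78. These included Aarsd1 (-1.56), an editing protein for mischarged alanine tRNA, Qrsl1 (-1.13), a subunit of the mitochondrial glutamine amidotransferase, and Aimp2 (-1.09), a scaffold of the cytosolic multi-synthetase complex. After median-of-ratios scaling 2 were lower and 1 higher. Without Reg4+ DCS replicate 1 the calls of Qrsl1 and Aimp2 were lost (limma adjusted p of 0.125 and 0.0871), as they were without Lgr5+ replicate 2 (0.0622 and 0.156). That of Qrsl1 was also lost without Lgr5+ replicate 1 (0.0756) and that of Aimp2 without Reg4+ DCS replicate 2 (0.0755).

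Genes of proline, aspartate, glutamate and glutamine metabolism held 7 lower and 1 higher of 15 tested, with a median of -0.91, or 3 lower and 1 higher after median-of-ratios scaling. The lower ones were led by Asrgl1 (-1.89), which splits asparagine, Prodh (-1.48), which starts proline breakdown, Pycrl (-1.24), which makes proline, and Glud1 (-1.07), the glutamate dehydrogenase. The calls of Prodh and Glud1 were lost without Reg4+ DCS replicate 1 (limma adjusted p of 0.0981 and 0.0627).

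**Figure D4:**
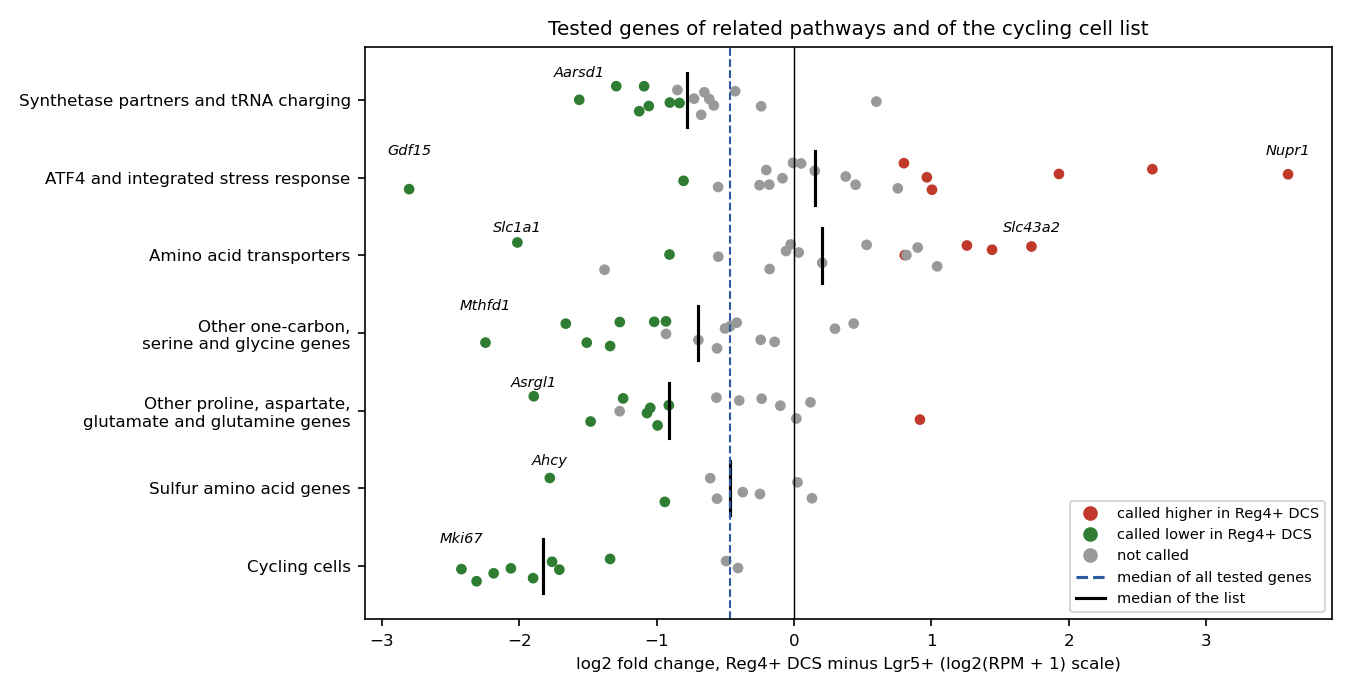
Log2 fold change (Reg4+ DCS minus Lgr5+) of each tested gene in the 6 related lists and of the cycling cell markers, 1 point per gene (red called higher, green called lower, grey not called), with list medians as bars and the median of all genes, -0.47, as a dashed line. The Atf4 response has a median of 0.15, and the other one-carbon genes one of -0.70.

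**Figure D5:**
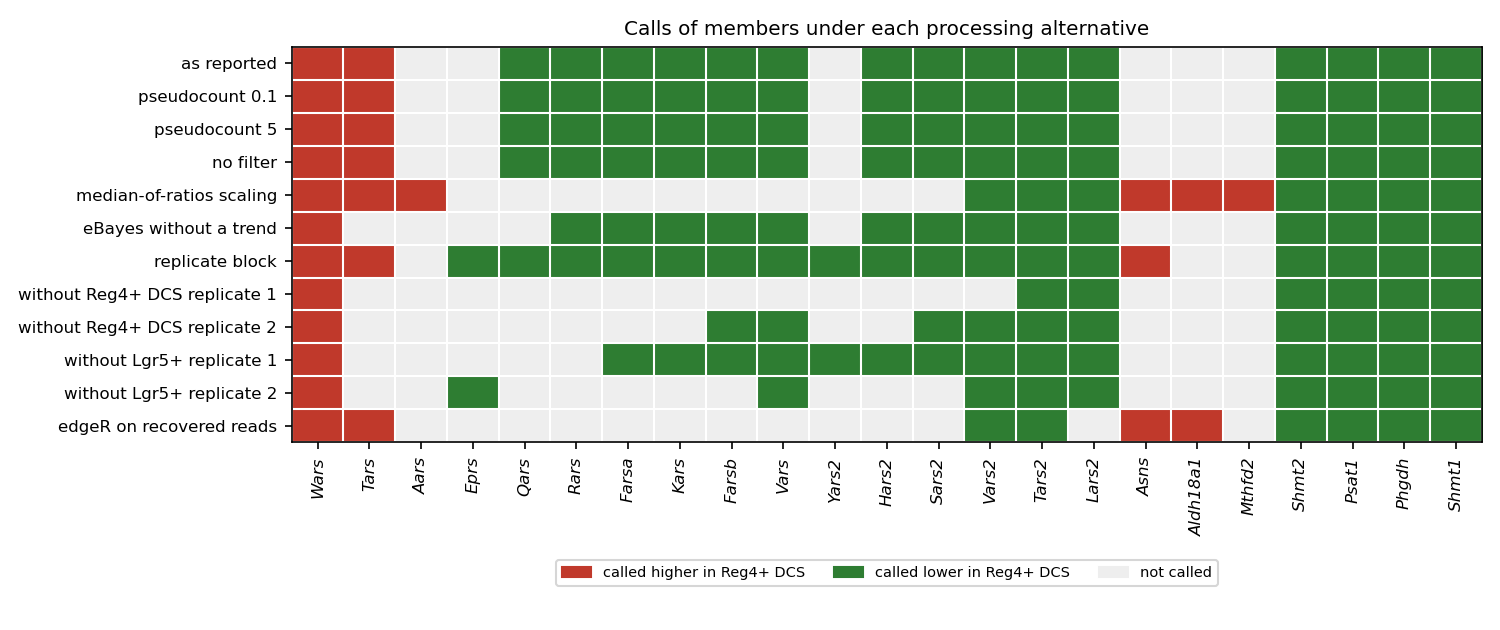
Calls at adjusted p under 0.05 (limma or edgeR) for each gene called in at least 1 setting, under the main setting and 11 alternatives. Wars, Tars2, Shmt1, Shmt2, Phgdh and Psat1 are called in every row, and the 6 lower cytosolic synthetases lose their call after median-of-ratios scaling and in edgeR.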

How the data were processed

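RNA of 4 libraries, 2 of Reg4+ DCS and 2 of Lgr5+ cells, was sequenced after CEL-seq preparation from total RNA, per the labels' protocols. BWA 0.6.2-r126 and the build mm10 are named in the submitters' processing notes, while the sources used here give no step of gene counting, annotation, molecular identifiers or strand. The authors deposited RPM, in which each column sums to 1000000, so an abundant transcript lowers the values of the others. In the Lgr5+ columns 100% of values were whole reads within 0.01 reads. The Reg4+ DCS columns decoded as the mean of 2 separately scaled parts, uniquely for 99.95% (5523304 and 1890960 reads) and 99.1% of genes (3004289 and 2443971 reads), with 7 and 129 genes left ambiguous. The sources used here do not say what these parts are, and each column counts as 1 replicate.

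Genes with at least 5 RPM in at least 2 libraries were tested with limma 3.58.1 in R 4.3.3 (trend on) on log2(RPM + 1) with group as the only term, adjusted by Benjamini-Hochberg over all 10183 genes and called under 0.05. Fold changes are of Reg4+ DCS minus Lgr5+ values on that scale, which understates those of low genes, and folds in words are ratios of mean RPM. The p-values measure the spread between these libraries. As an alternative, edgeR 4.0.16 (quasi-likelihood) was run on the recovered reads of 10054 genes and called 2702, 1351 each way. The other alternatives were pseudocounts of 0.1 and 5, no filter, median-of-ratios scaling, no trend, a replicate block and leaving out each library. The decoding and the fits were tested on simulated data. All 45 genes matched GENCODE M21 (GRCm38), which gave coordinates, and the last 500 bases of their transcripts were searched with BLAST 2.17.0 for matches of at least 50 bases and 95% identity, found for 11 genes.

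The members and lists were chosen with earlier results of these data known. Values are printed for every called member, every amino acid and folate enzyme and up to 3 uncalled members per class with the highest mean RPM, and up to 4 called genes with the largest change are named from each related list. Values of Aars, Wars2 and Pars2 were added to these after they were seen. Of the genes in the related lists, 2 that this rule or their direction would have named are not reported here, although they stay in the counts.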

Additional observations from a re-analysis of the deposited data

How the results depend on the processing

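The count of called genes over all 10183 tested was 3475, between 1419 and 2637 without 1 library (1419 without Reg4+ DCS replicate 1 and 2132 without Lgr5+ replicate 2). For the 45 genes the count of 17 was 7 to 15 without 1 library and 10 in edgeR on recovered reads. For the cytosolic synthetases it was 1 to 5 without 1 library, 3 after median-of-ratios scaling and 2 in edgeR, for the mitochondrial ones 2 to 6, 3 and 2, and for the amino acid and folate enzymes 7 after median-of-ratios scaling. The related pathways gave 12 to 26 calls without 1 library. Negative log2 fold changes that did not pass the test turned positive after median-of-ratios scaling for Cars (0.077), Dars (0.45), Ears2 (0.019), Gars (0.31), Hars (0.048), Lars (0.025), Mars (0.39), Nars (0.23), Nars2 (0.11), Sars (0.28), Psph (0.22) and Atf5 (0.28). In edgeR they turned for Cars (0.11), Dars (0.38), Gars (0.26), Hars (0.022), Mars (0.31), Nars (0.18), Nars2 (0.089), Sars (0.19), Psph (0.26) and Atf5 (0.33). Without Reg4+ DCS replicate 1 and without Lgr5+ replicate 2 they turned for Dars (0.032 and 0.11, in a range from -0.19 to 0.11 without 1 library) and Atf5 (0.14 and 0.030, in a range from -0.54 to 0.14). Both scalings move the median of all genes by construction, and the cause of the other changes was not tested. With a replicate block the count was 4444 over all genes (910 higher and 3534 lower) and 20 among the 45 (3 higher and 17 lower), and Asns, Eprs and Yars2 passed with it (limma adjusted p of 0.0461, 0.0372 and 0.0376). Deviations of same-numbered libraries correlated at r = 0.21 over 10183 genes, but the design text does not say that a number marks a shared round, so the block was not used. Leaving Lars2 out of the mitochondrial sum was chosen after seeing the data. Depth limits the genes near 5 RPM most, where 1 read was worth 0.126 to 0.529 RPM.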

Other observations

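Amino acid transporters held 4 higher and 2 lower of 17 tested genes in Reg4+ DCS cells, with a median log2 fold change of 0.21, against -0.47 for all genes. Median-of-ratios scaling gave 8 higher and 1 lower. Slc43a2, a transporter of large neutral amino acids, had 21.6 and 21.3 RPM in Reg4+ DCS and 8.64 and 3.77 RPM in Lgr5+ libraries (log2 fold change 1.73, limma adjusted p = 0.0119). Slc38a9, an arginine sensor of the lysosome, had 18.9 and 27.6 RPM in Reg4+ DCS and 10.4 and 5.78 RPM in Lgr5+ libraries (1.44, limma adjusted p = 0.0190). Slc7a7, which exports cationic amino acids, was also higher (1.26). Slc1a1, a glutamate and aspartate transporter, was lower, with 2.51 and 4.03 RPM in Reg4+ DCS and 19.6 and 12.9 RPM in Lgr5+ libraries (-2.01, limma adjusted p = 0.00492). The calls of Slc43a2, Slc38a9 and Slc7a7 were lost without Reg4+ DCS replicate 1 (limma adjusted p of 0.0757, 0.0532 and 0.0943) or replicate 2 (0.0539, 0.0918 and 0.130), and those of Slc38a9 and Slc7a7 also without Lgr5+ replicate 2 (0.0636 and 0.177).

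Genes of sulfur amino acid metabolism held 2 lower and 0 higher of 8 tested, with a median of -0.47, the same as all genes. Ahcy, which hydrolyses S-adenosylhomocysteine, had 105 and 114 RPM in Reg4+ DCS and 515 and 277 RPM in Lgr5+ libraries (log2 fold change -1.78, limma adjusted p = 0.00415). Cth, which makes cysteine, had a log2 fold change of -0.94 (limma adjusted p = 0.0273), and this call was lost after median-of-ratios scaling (limma adjusted p = 0.216) and without Reg4+ DCS replicate 1 (0.0981), Reg4+ DCS replicate 2 (0.0821) or Lgr5+ replicate 1 (0.164).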
